A study of Mus musculus with 18 samples.

Results

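The response of mouse pancreatic islets to a high-fat diet was compared between animals with and without an intact second exon of Cdh13, as a genotype by diet interaction at 14 weeks of age. For every gene the diet response (high-fat diet minus chow) in deleted islets was set against the diet response in floxed islets, which used 12 of the 18 libraries of the series, 3 in each of 4 groups. All mice were C57BL/6. Floxed animals carried exon 2 of Cdh13 between loxP sites and served as controls, and deleted animals had lost that exon. In each genotype 1 group of 14-week-old animals was kept on normal chow and 1 group had eaten a high-fat diet for the last 6 weeks. No Cre driver, sex or pooling of animals is given in the sources used here, so it is not known in which cells the exon was removed. The labels number the replicates without saying that each was a separate animal, and p-values then measure only the spread between these samples, which may be technical.

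Islets hold beta cells, which store and release insulin, together with glucagon-producing alpha cells, somatostatin-producing delta cells and pancreatic polypeptide cells. On a diet rich in fat, mouse beta cells are known to secrete more insulin, to re-enter the cell cycle at a low rate and to load their secretory pathway. Cdh13 encodes T-cadherin, a membrane-anchored cadherin that lacks a cytoplasmic tail and binds adiponectin. An interaction asks whether the same diet moved a gene by a different amount, or in a different direction, depending on the genotype.

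Values were deposited gene-level FPKM, fragments scaled to transcript length and to the fragments of the library. Responses are given on the log2(FPKM + 1) scale, on which the fold change of a gene with few FPKM appears smaller than it is. The number of reads per library was not analysed here, so the depth behind a single value is unknown. Between 11541 and 11787 genes reached 1 FPKM in a 14-week library. Checked against the islet label, Ins2, 1 of the 2 mouse insulin genes, took 40.2% to 43.8% of summed FPKM on chow and 50.2% to 52.7% on the high-fat diet. Cdh13 itself measured 1.63, 2.06 and 1.33 FPKM in floxed chow, 1.38, 1.17 and 1.43 in floxed high-fat, 0.691, 0.419 and 0.544 in deleted chow and 0.247, 0.809 and 0.311 in deleted high-fat libraries. Deleted libraries lay below floxed ones on either diet, and the interaction for Cdh13 was 0.09 (SE 0.237, adjusted p = 0.903).

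Acinar RNA, from the exocrine tissue around islets, moved with diet in both genotypes. The 18 acinar markers in the tables summed to 0.121% to 0.677% of FPKM in floxed chow and 0.187% to 0.324% in deleted chow libraries. They summed to 0.00217% to 0.0333% in floxed high-fat and 0.00951% to 0.0207% in deleted high-fat libraries, so the diets did not overlap. Of the 15 tested markers 14 fell on the high-fat diet in floxed and 11 in deleted islets, where 13.5% and 5.91% of all tested genes fell. For the interaction 0 of the 15 passed (limma, adjusted p below 0.05). At unadjusted p below 0.05 it was also 0, against 17.1% of all tested genes. The SEs of these interactions ran from 0.738 (Amy2b) to 2.17 (Cela2a), too wide to show that acinar RNA moved equally in both genotypes.

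The diet response differed between genotypes for 432 of 12234 tested genes, or 3.53% (limma, Benjamini-Hochberg adjusted p below 0.05). The interaction, deleted response minus floxed response, was positive for 174 of them (1.42% of tested genes) and negative for 258 (2.11%). In most, the floxed islets responded and the deleted islets responded less. The class of blunted responses, in which the floxed response passed and the deleted one was smaller and did not pass in the opposite direction, held 304 genes, 2.48% of those tested (203 rises and 101 falls in floxed islets). The enhanced class, in which the deleted response passed and was the larger, held 77 genes, 0.629% of those tested (47 rises and 30 falls in deleted islets). In 53 of the 77 the floxed response lay on the other side of zero without passing, and in 24 it had the same direction. A reversed response, with both genotypes past the threshold in opposite directions, was found for 47 genes, 0.384% of those tested (23 that rose and 24 that fell in floxed islets). The other 4 genes (0.0327%), Arfgap3, Glb1, Nckap1 and Nudt11, met none of these definitions. Classes are descriptions of genes already called and have no test of their own.

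Among the 304 blunted genes the median size of the response was 0.14 in deleted and 0.59 in floxed islets. As a percentage of the floxed response, with signs kept, the deleted response ran from -98.3% to 57.3%, with a median of -10.0%. In 177 genes the deleted response lay on the other side of zero without passing, while in 127 it kept the floxed direction. When classes were taken from the signs of the responses alone, 127 genes were blunted, 24 enhanced and 281 reversed, so the border between blunted and reversed depends on asking both responses to pass. The diet response alone passed for 3486 genes (28.5%) in floxed and 1830 (15%) in deleted islets. Of the 2380 genes that passed in floxed islets only, 283 (11.9%) passed for the interaction. Of the 724 that passed in deleted islets only, 70 (9.67%) did. A response that passed in a single genotype was therefore, for most genes, not shown to differ between genotypes. Across the tested genes the responses of the 2 genotypes, which share no libraries, had a Pearson's r of 0.628 and a Spearman's rho of 0.527, given as a description since genes are not independent.

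The genotypes stood apart mainly on the high-fat diet. Among the 432 genes the difference between deleted and floxed islets passed for 384 (88.9%) on the high-fat diet and for 5 on chow. The size of that difference was larger on the high-fat diet in 400 genes (92.6%). Over all tested genes the same differences passed for 10.7% on the high-fat diet and 0.114% on chow. The interaction and the genotype differences use the same libraries, so these counts describe where the interaction arose and are no separate evidence for it.

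**Figure D1:**
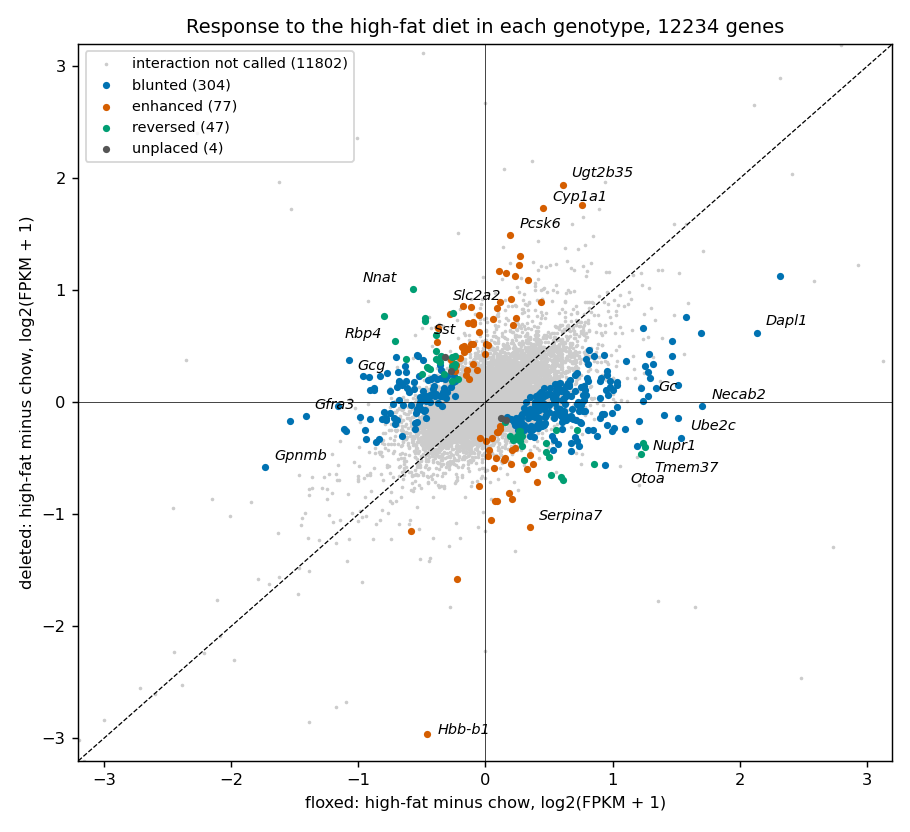
Diet response (high-fat diet minus chow, log2(FPKM + 1)) in floxed islets on the x axis and in deleted islets on the y axis, 1 point per tested gene. Called genes are coloured by class. The 304 blunted genes lie nearer the horizontal zero line and the 77 enhanced genes nearer the vertical one. The 47 reversed genes lie in the quadrants of opposite sign. The axes stop at 3.2, which leaves 28 genes outside.

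Genes of DNA replication and mitosis held more blunted responses than any other of the 34 gene lists examined. Of 30 tested S phase and mitosis genes, 11 (36.7%, against 3.53% of all tested genes) passed for the interaction, all negative, and the median interaction of the list was -0.35 against 0.01 over all tested genes. In floxed islets 13 of the 30 rose on the high-fat diet and 2 fell, where 15% of all tested genes rose and 13.5% fell. In deleted islets 0 rose and 3 fell, where 9.05% of all tested genes rose and 5.91% fell. Of the 11 genes, 10 were blunted and Prc1, which bundles microtubules of the dividing spindle, was reversed. The call held without each of the 12 libraries for 7 of the 11. It was lost in 7 of the 12 fits for Cdc20, in 9 for Cdca8 and in 6 for E2f1. For Prc1 it was lost without replicate 1 of floxed chow (limma, adjusted p = 0.0504). Without the filter on low values the calls of Cdc20, Cdca8 and E2f1 were lost. That of Cdca8 was also lost with the acinar covariate and with the 14-week libraries alone. Stmn1 and E2f1 apart, every group mean of these genes was below 6 FPKM. In bulk tissue fewer cells of a kind and less RNA per cell cannot be told apart.

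Ube2c, the ubiquitin-conjugating enzyme of the anaphase-promoting complex, had the largest interaction of the list. It measured 0.955, 1.62 and 1.24 FPKM in floxed chow and 8.73, 6.05 and 3.09 FPKM in floxed high-fat libraries. Deleted libraries measured 1.88, 1.02 and 1.34 FPKM on chow and 0.886, 0.504 and 1.48 FPKM on the high-fat diet. The 3 floxed high-fat libraries were the highest of the 12 and did not overlap with any other group, and the deleted groups overlapped with each other. The floxed response was 1.54 (adjusted p = 3.71e-04), the deleted response -0.31 (adjusted p = 0.477) and the interaction -1.85 (SE 0.373, adjusted p = 0.00895).

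Stmn1, which encodes the microtubule-destabilising protein stathmin, was the most abundant of the called genes of this list. It measured 13.9, 15.8 and 13.6 FPKM in floxed chow, 36.2, 27.8 and 32.5 in floxed high-fat, 19, 17.1 and 16.1 in deleted chow and 12.6, 16.6 and 14.8 in deleted high-fat libraries. Floxed high-fat libraries lay above the other 9, and the interaction was -1.34 (SE 0.219, adjusted p = 0.00219). Birc5, the survivin subunit of the chromosomal passenger complex, measured 0.827, 0.437 and 0.810 FPKM in floxed chow, 3.38, 1.58 and 1.98 in floxed high-fat, 1.90, 1.49 and 0.842 in deleted chow and 0.253, 0.572 and 1.12 in deleted high-fat libraries. For Birc5 1 deleted chow library lay inside the floxed high-fat range, and the interaction was -1.50 (SE 0.297, adjusted p = 0.00701).

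The kinase gene Cdk1 and its partner cyclin Ccnb1, which together drive entry into mitosis, moved alike. Cdk1 measured 0.314, 0.507 and 0.470 FPKM in floxed chow, 1.81, 1.21 and 1.17 in floxed high-fat, 0.733, 0.456 and 0.580 in deleted chow and 0.0486, 0.111 and 0.516 in deleted high-fat libraries. Ccnb1 measured 0.362, 0.239 and 0.525 FPKM in floxed chow, 1.54, 1.31 and 1.56 in floxed high-fat, 0.819, 0.414 and 0.998 in deleted chow and 0.336, 0.347 and 0.717 in deleted high-fat libraries. For each gene every floxed high-fat library exceeded the other 9. The interactions were -1.13 for Cdk1 (SE 0.228, adjusted p = 0.00793) and -1.09 for Ccnb1 (SE 0.209, adjusted p = 0.00561). Pbk, a mitotic kinase, had an interaction of -1.37 (adjusted p = 0.00561).

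**Figure D2:**
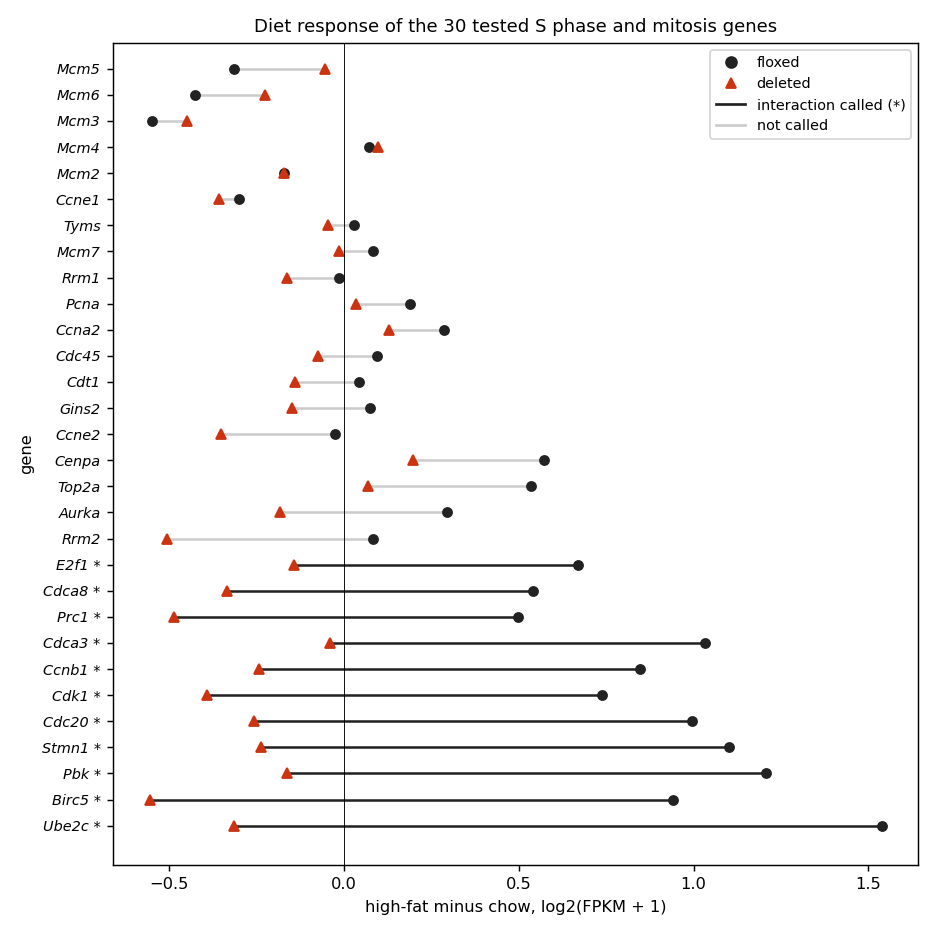
Diet response (high-fat diet minus chow, log2(FPKM + 1), x axis) of the 30 tested S phase and mitosis genes (rows), with floxed islets as circles and deleted islets as triangles, each the difference of group means. Dark lines and asterisks mark the 11 genes called for the interaction, in all of which the floxed point lies to the right of zero and the deleted point to the left.

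Promoters of cell cycle genes are known to carry CCAAT boxes, bound by NF-Y, and the cell cycle homology element, whose core TTTGAA is read by the MuvB complexes. Both motifs were searched on either strand with their reverse complements in windows from 250 bases before to 50 after each start, from RefSeq on GRCm38.p6. A window was found for 24 of the 30 tested S phase and mitosis genes, 9 of the 11 called ones among them. A gene was counted when any of its windows held a match. CCAAT occurred in 19 of the 24 genes (79.2%) against 41.1% of all 27025 genes with a window. TTTGAA occurred in 11 of the 24 (45.8%) against 20.2%. CCAAT was found in 7 of the 9 called and 12 of the 15 uncalled genes, and TTTGAA in 6 of the 9 and 5 of the 15. A match is a description of letters and not a measured binding site. The 250 bases before the start of 3 called genes are shown, since they differ in these motifs; capitals mark each match on either strand, and each is read 5′ to 3′ on the gene's own strand. Cdk1 is at chr10:69352913-69353162 (minus strand), Cdc20 at chr4:118437344-118437593 (minus strand) and Birc5, in which neither motif was found, at chr11:117848987-117849236 (plus strand).
Cdk1: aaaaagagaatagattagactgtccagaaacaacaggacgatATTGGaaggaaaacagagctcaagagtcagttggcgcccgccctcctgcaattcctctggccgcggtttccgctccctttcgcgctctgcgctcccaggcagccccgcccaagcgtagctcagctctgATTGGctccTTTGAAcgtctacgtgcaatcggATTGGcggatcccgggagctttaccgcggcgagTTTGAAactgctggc
Cdc20: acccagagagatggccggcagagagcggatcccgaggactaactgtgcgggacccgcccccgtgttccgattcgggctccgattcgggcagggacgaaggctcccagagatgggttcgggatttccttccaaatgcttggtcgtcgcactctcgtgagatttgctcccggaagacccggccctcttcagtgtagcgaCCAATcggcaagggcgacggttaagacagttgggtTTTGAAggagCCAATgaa
Birc5: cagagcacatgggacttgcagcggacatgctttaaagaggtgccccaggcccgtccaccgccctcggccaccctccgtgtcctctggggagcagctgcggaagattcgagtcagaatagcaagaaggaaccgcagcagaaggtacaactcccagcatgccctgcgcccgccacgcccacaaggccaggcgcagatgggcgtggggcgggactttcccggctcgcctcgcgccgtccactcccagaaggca

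Of the 15 tested G1 cyclins, kinases and inhibitors, 2 passed (13.3%, against 3.53% of all tested genes), Cdkn2c and Cdkn1a, the p21 inhibitor induced by p53. Cdkn2c, which encodes the p18 inhibitor of the G1 kinases, was reversed. It measured 2.79, 3.79 and 5.22 FPKM in floxed chow, 6.88, 6.14 and 5.91 in floxed high-fat, 5.07, 3.81 and 3.99 in deleted chow and 2.64, 1.89 and 2.48 in deleted high-fat libraries. The deleted high-fat libraries were the lowest and the floxed high-fat libraries the highest of the 12, and the interaction for Cdkn2c was -1.26 (SE 0.235, adjusted p = 0.00487). Other inhibitor genes did not pass, such as Cdkn1b, the p27 gene (0.10, adjusted p = 0.852).

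The largest blunted rises outside the cell cycle included genes of the secretory pathway and calcium binding. Necab2 encodes a calcium-binding protein of neurons. It measured 5.75, 5.38 and 6.31 FPKM in floxed chow, 21.9, 21.8 and 19.9 in floxed high-fat, 5.96, 8.90 and 9.77 in deleted chow and 6.28, 7.81 and 9.75 in deleted high-fat libraries. The floxed high-fat libraries stood alone at more than 2 times every other value, and the interaction was -1.74 (SE 0.212, adjusted p = 8.28e-05). Necab2 lies on the same chromosome as Cdh13, at 119446719 to 119472640 on chromosome 8 (mm10), downstream of the end of Cdh13 at 119324921.

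Derl3, a component of endoplasmic-reticulum-associated protein degradation, measured 3.87, 3.57 and 2.81 FPKM in floxed chow, 9.66, 10.4 and 11.9 in floxed high-fat, 3.5, 3.62 and 4.94 in deleted chow and 3.87, 3.24 and 3.69 in deleted high-fat libraries. Only the floxed high-fat libraries were high, and the interaction was -1.52 (SE 0.24, adjusted p = 0.00121). Dapl1, a small protein linked to epithelial differentiation, rose in both genotypes but less in deleted islets. It went from 7.54 ± 2.22 to 35.5 ± 0.246 FPKM in floxed and from 6.4 ± 0.676 to 10.4 ± 1.35 FPKM in deleted islets (mean ± SD, n = 3 each), with an interaction of -1.51 (adjusted p = 5.67e-04 by limma). Insl6, of the insulin and relaxin peptide family, completed the rises named by size (-1.58, adjusted p = 0.00505).

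Among blunted falls, Gfra3, the receptor subunit for the neurotrophic factor artemin, measured 10.6, 10.8 and 9.72 FPKM in floxed chow, 1.98, 4.63 and 3.61 in floxed high-fat, 8.51, 7.71 and 7.43 in deleted chow and 8.44, 6.48 and 6.65 in deleted high-fat libraries. Only the floxed high-fat libraries were low, and the interaction for Gfra3 was 1.29 (SE 0.27, adjusted p = 0.0106). Higd1a, a hypoxia-induced mitochondrial protein, measured 18.2, 17.0 and 22.4 FPKM in floxed chow, 9.12, 10.6 and 8.32 in floxed high-fat, 17.3, 12.9 and 14.1 in deleted chow and 18.4, 18.9 and 15.4 in deleted high-fat libraries. The floxed high-fat libraries were again the 3 lowest, and the interaction was 1.20 (SE 0.201, adjusted p = 0.00219).

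Gpnmb, a membrane glycoprotein abundant in macrophages, fell in both genotypes, from 6.14 ± 2 to 1.10 ± 0.171 FPKM in floxed and from 5.21 ± 0.584 to 3.16 ± 0.376 FPKM in deleted islets (mean ± SD, n = 3 each). Its interaction was 1.16 (SE 0.226, adjusted p = 0.00629 by limma). Of 19 tested macrophage and MHC class II genes, 10 fell in floxed and 4 in deleted islets, where 13.5% and 5.91% of all tested genes fell. Their interactions were above zero in 15 of the 19, with a median of 0.21, and 1, Cd14, passed, against 3.53% of all tested genes. Smim24, a small membrane protein, fell in floxed islets (-1.08), and its deleted response of 0.38 did not pass. Its interaction was 1.45 (adjusted p = 0.0107). For Cyr61, a matrix-associated signalling protein now named Ccn1, the interaction was 1.37 (adjusted p = 0.0321). The Cyr61 call ended in 8 of 12 fits with 1 library left out, with adjusted p from 0.0593 to 0.0834: replicates 1 and 3 of deleted high-fat, 2 and 3 of deleted chow, and 1 and 2 of each floxed group.

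Of 5 tested delta and PP cell genes, 3 passed for the interaction (60%, against 3.53% of all tested genes), Sst and Rbp4 as reversed and Hhex as a blunted fall. Sst, the somatostatin gene, measured 1885, 2031 and 2375 FPKM in floxed chow and 1423, 1502 and 1579 FPKM in floxed high-fat libraries. Deleted libraries measured 1735, 1759 and 1349 FPKM on chow and 2909, 2657 and 2556 FPKM on the high-fat diet. The deleted high-fat libraries were the 3 highest of the 12, and the diets did not overlap in either genotype. The floxed response was -0.48 (adjusted p = 0.00163), the deleted response 0.75 (adjusted p = 6.07e-05) and the interaction 1.23 (SE 0.142, adjusted p = 4.69e-05).

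Rbp4, the retinol carrier that also marks delta cells, and Ffar4, a long-chain fatty acid receptor known from delta cells and not on that list, were reversed in the same direction as Sst. Rbp4 measured 201, 187 and 206 FPKM in floxed chow, 111, 140 and 113 in floxed high-fat, 192, 194 and 158 in deleted chow and 284, 261 and 248 in deleted high-fat libraries. Ffar4 measured 9.36, 10.2 and 11.8 FPKM in floxed chow, 6.15, 6.80 and 6.30 in floxed high-fat, 9.94, 9.27 and 7.43 in deleted chow and 11.9, 12.5 and 11.2 in deleted high-fat libraries. For both genes the floxed high-fat libraries were the lowest of the 12. The interactions were 1.26 for Rbp4 (SE 0.134, adjusted p = 1.97e-05) and 1.01 for Ffar4 (SE 0.152, adjusted p = 8.49e-04). They are neighbours on chromosome 19 (mm10), with Ffar4 at 38097071 to 38114263 and Rbp4 at 38116629 to 38125281 on the opposite strand. Hhex, the transcription factor of delta cells, was blunted (interaction 1.11, adjusted p = 0.0106). Its floxed response was -0.70, and its deleted response of 0.41 did not pass. Ppy, the pancreatic polypeptide gene, varied widely within groups, for example 4321 to 16598 FPKM in deleted chow, and did not pass (0.48, adjusted p = 0.775).

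Nupr1, a chromatin-associated protein induced by cellular stress, was among the most abundant reversed genes. It measured 2058, 2076 and 1934 FPKM in floxed chow, 4847, 4645 and 4840 in floxed high-fat, 2868, 3369 and 2852 in deleted chow and 2265, 2429 and 2355 in deleted high-fat libraries. The 4 groups did not overlap: floxed high-fat was highest, then deleted chow, deleted high-fat and floxed chow. Deleted islets were above floxed ones on chow (0.58, adjusted p = 0.0182) and below them on the high-fat diet (-1.02, adjusted p = 9.68e-07). The interaction for Nupr1 was -1.60 (SE 0.133, adjusted p = 1.11e-06).

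Tmem37, a protein related to calcium channel gamma subunits, measured 4.87, 5.27 and 6.47 FPKM in floxed chow, 13.7, 15.3 and 14.7 in floxed high-fat, 7.17, 7.84 and 6.97 in deleted chow and 5.78, 4.51 and 5.75 in deleted high-fat libraries. Floxed high-fat libraries were far above the rest, and the interaction was -1.65 (SE 0.149, adjusted p = 2.21e-06). The other genes that rose in floxed and fell in deleted islets, and were named by size, were Otoa, the otoancorin gene (-1.69, adjusted p = 2.79e-05), Rwdd2a (-1.41, adjusted p = 2.45e-04) and Xlr3b, an X-linked gene with close copies among which reads may be split (-1.30, adjusted p = 0.01).

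In the opposite direction, Nnat, the imprinted neuronatin gene, known for a role in beta cell secretion, measured 4.05, 5.38 and 5.51 FPKM in floxed chow, 3.26, 2.85 and 2.95 in floxed high-fat, 5.09, 4.95 and 3.57 in deleted chow and 11.3, 9.61 and 9.44 in deleted high-fat libraries. Deleted high-fat libraries were the highest and floxed high-fat libraries the lowest, with an interaction of 1.58 (SE 0.226, adjusted p = 5.67e-04). Slc2a2, the glucose transporter GLUT2 of beta cells, measured 33.7, 28.8 and 28.6 FPKM in floxed chow, 28.2, 23.9 and 23.9 in floxed high-fat, 30.4, 29.5 and 30.8 in deleted chow and 60.3, 51.1 and 49.4 in deleted high-fat libraries. The 3 deleted high-fat libraries were above all others, while the floxed fall was small (-0.25, adjusted p = 0.0453). The interaction for Slc2a2 was 1.05 (SE 0.13, adjusted p = 9.78e-05).

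Membership of the reversed class was less stable than the interaction calls of its genes. Over the 12 fits without 1 library, 42 of the 47 genes kept the interaction call throughout and 5 (10.6%) stayed reversed throughout, beside 126 of 304 that stayed blunted and 26 of 77 that stayed enhanced. With the acinar marker level as a covariate, 3 of the 47 genes stayed reversed, 17 became blunted, 7 enhanced and 20 unplaced, yet 0 of the 47 lost the interaction call. Among the 14-week libraries the acinar level did not overlap between diets, while that of the 8-week chow libraries, which are in the same fit, overlapped with that of the high-fat libraries. With that covariate the diet response passed for 1844 genes in floxed and 820 in deleted islets. The part of acinar RNA in these diet responses was not tested further.

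**Figure D3:**
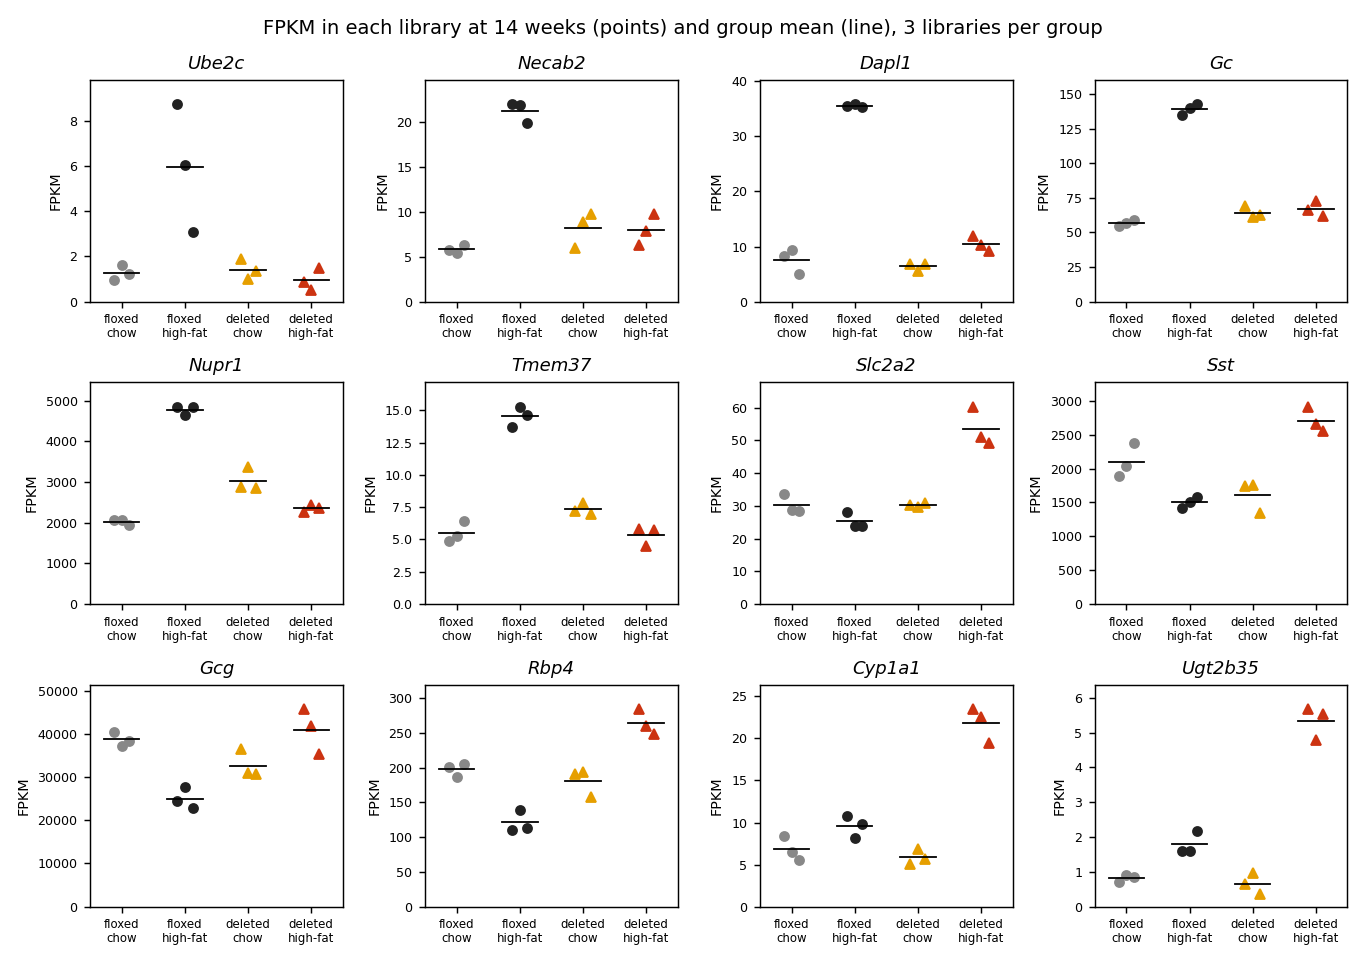
FPKM (y axis) of named blunted, enhanced and reversed genes in each of the 12 libraries, by genotype and diet (x axis); points are libraries and horizontal lines are group means of 3. Ube2c, Necab2, Dapl1, Gc, Nupr1 and Tmem37 are highest in floxed high-fat libraries, Slc2a2, Sst, Rbp4, Cyp1a1 and Ugt2b35 in deleted high-fat libraries, and Gcg is lowest in floxed high-fat libraries.

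Enhanced rises included 2 enzymes that process foreign compounds. Cyp1a1, a monooxygenase induced through the aryl hydrocarbon receptor, measured 8.44, 6.48 and 5.50 FPKM in floxed chow, 10.8, 8.19 and 9.88 in floxed high-fat, 5.10, 6.87 and 5.67 in deleted chow and 23.5, 22.5 and 19.5 in deleted high-fat libraries. The deleted high-fat libraries stood alone, and the interaction was 1.28 (SE 0.201, adjusted p = 0.0012). Ugt2b35, a glucuronosyltransferase of a gene family with close copies, went from 0.824 ± 0.105 to 1.79 ± 0.343 FPKM in floxed and from 0.661 ± 0.300 to 5.33 ± 0.470 FPKM in deleted islets (mean ± SD, n = 3 each). Both genotypes rose, and the interaction for Ugt2b35 was 1.34 (adjusted p = 5.86e-04 by limma).

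Pcsk6, a proprotein convertase, measured 13.2, 14.6 and 9.40 FPKM in floxed chow, 15.0, 14.0 and 13.4 in floxed high-fat, 8.32, 8.71 and 4.26 in deleted chow and 20.2, 21.8 and 21.0 in deleted high-fat libraries. Deleted islets spanned the range, with the 3 lowest values on chow and the 3 highest on the high-fat diet, and the interaction was 1.30 (SE 0.278, adjusted p = 0.0147). The same arrangement held for the kinase gene Hipk2 (1.07, adjusted p = 0.0131). For the deubiquitinase gene Usp7 the interaction was 1.04 (adjusted p = 0.00475).

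Among enhanced falls, Igfbp3, a carrier of insulin-like growth factors, measured 53.7, 60.7 and 78.8 FPKM in floxed chow, 73.1, 79.3 and 69.3 in floxed high-fat, 44.4, 48.3 and 50 in deleted chow and 21.7, 27.8 and 28 in deleted high-fat libraries. Deleted libraries were below floxed ones on either diet without overlap, and lowest on the high-fat diet. The interaction for Igfbp3 was -1.08 (SE 0.199, adjusted p = 0.00561). Kcnj8, the KATP channel pore of vascular cells, measured 3.65, 3.39 and 5.45 FPKM in floxed chow, 5.37, 4.77 and 7.37 in floxed high-fat, 3.56, 3.12 and 2.57 in deleted chow and 1.17, 1.59 and 1.71 in deleted high-fat libraries. Only deleted high-fat libraries were below 2 FPKM, and the interaction was -1.12 (SE 0.235, adjusted p = 0.00959). Pericyte and matrix genes as a list had 0 of 17 tested members called, with a median interaction of -0.18. At unadjusted p below 0.05 there were 2, where 17.1% of all tested genes passed.

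Serpina7, the thyroxine-binding globulin gene, had an interaction of -1.47 (adjusted p = 0.017). Areg, which encodes the EGF receptor ligand amphiregulin, measured 7.68, 11.5 and 13.3 FPKM in floxed chow, 8.39, 12.7 and 12.1 in floxed high-fat, 17.1, 19.4 and 14.1 in deleted chow and 6.74, 8.91 and 7.24 in deleted high-fat libraries. It was highest in deleted chow, and the interaction was -1.09 (SE 0.252, adjusted p = 0.0217). The Areg call ended without replicate 1 or 3 of deleted high-fat, 2 of deleted chow, or 2 or 3 of floxed high-fat (adjusted p from 0.0519 to 0.0591).

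Haemoglobin genes, which mark red blood cells, had the largest enhanced fall. Hbb-b1 measured 1.46, 3.89 and 5.49 FPKM in floxed chow, 1.72, 1.27 and 3.83 in floxed high-fat and 5.20, 7.52 and 10.6 in deleted chow libraries. In deleted high-fat libraries it measured 0.301 FPKM in 1 and was listed at 0 in the other 2, and Hbb-b2 was listed at 0 in all 3. The interactions were -2.50 for Hbb-b1 (adjusted p = 0.0222) and -1.35 for Hbb-b2 (adjusted p = 0.0107). These paralogues are near-identical, so reads can be split between them. The Hbb-b1 call ended without replicate 2 or 3 of deleted high-fat or replicate 3 of deleted chow, at an adjusted p of 0.0535 to 0.0559. Of 4 tested erythroid genes 2 passed, against 3.53% of all tested genes. The 8 with values summed to 0.00136% to 0.00185% of FPKM in floxed chow and 5.07e-04% to 7.44e-04% in floxed high-fat libraries. In deleted libraries they summed to 0.00208% to 0.00285% on chow and 5.64e-05% to 2.37e-04% on the high-fat diet. The part of blood carried with the islets was not tested.

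Endocrine identity genes mostly had positive interactions. Of 24 tested beta cell genes, 6 (25%, against 3.53% of all tested genes) passed, all positive, and 21 were above zero, with a median of 0.30 against 0.01 over all tested genes. Besides Slc2a2, these were Sytl4, Pcsk2, Trpm5 and Isl1, which were blunted falls, and Pdx1, which was enhanced. The deleted responses of Sytl4, Pcsk2, Trpm5 and Isl1 were 0.12, 0.13, 0.21 and 0.06 and did not pass. For Pdx1 the deleted response was 0.34, while the floxed one was -0.23 and did not pass. Sytl4, the granule docking protein granuphilin, measured 85.9, 82.0 and 84.2 FPKM in floxed chow, 57.7, 57.1 and 55 in floxed high-fat, 82.4, 82.3 and 84.3 in deleted chow and 94.7, 92.9 and 83.3 in deleted high-fat libraries. Only floxed high-fat libraries were low, and the interaction for Sytl4 was 0.68 (SE 0.0969, adjusted p = 5.67e-04). The call for Isl1 ended without replicate 1 of deleted high-fat, 3 of deleted chow, 2 of floxed high-fat or 1 of floxed chow (adjusted p from 0.0506 to 0.0599).

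Pdx1, the transcription factor that maintains beta cell identity, measured 22.1, 21.4 and 25.2 FPKM in floxed chow, 18.1, 20.1 and 19.7 in floxed high-fat, 23.4, 23.5 and 22.7 in deleted chow and 29.6, 28 and 31.3 in deleted high-fat libraries. Deleted high-fat libraries were the 3 highest and floxed high-fat libraries the 3 lowest, and the interaction was 0.57 (SE 0.125, adjusted p = 0.0139). Pcsk2, the prohormone convertase PC2, had an interaction of 0.45 (adjusted p = 0.00405). The insulin genes did not pass: Ins2 rose in both genotypes (0.81 in floxed, adjusted p = 9.12e-06, and 0.74 in deleted, adjusted p = 6.07e-05), with an interaction of -0.07 (SE 0.139, adjusted p = 0.859). For Ins1 the interaction was 0.32 (SE 0.136, adjusted p = 0.233), and reads may be split between these similar genes. Mafa (1.03, SE 0.437, adjusted p = 0.236) and Ucn3 (0.30, SE 0.0894, adjusted p = 0.0748), both markers of mature beta cells, also missed the threshold.

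Alpha cell genes followed the same direction with 1 exception. Of 7 tested alpha cell genes, 5 passed, 4 positive, Gcg, Irx2 and Ttr among them, and 1 negative (Gc), or 71.4% against 3.53% of all tested genes, and the median was 0.84 against 0.01. Gcg, the glucagon gene, measured 40581, 37346 and 38385 FPKM in floxed chow, 24454, 27740 and 22926 in floxed high-fat, 36545, 30919 and 30702 in deleted chow and 45768, 41802 and 35511 in deleted high-fat libraries. The floxed high-fat libraries were the 3 lowest, and the interaction for Gcg was 0.96 (SE 0.173, adjusted p = 0.00405).

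Ttr, the transthyretin gene, had an interaction of 0.84 (adjusted p = 0.00168). Gc, which encodes the vitamin D binding protein, ran against the list. It measured 54.5, 57.2 and 59.0 FPKM in floxed chow, 135, 140 and 143 in floxed high-fat, 69.1, 61.5 and 62.7 in deleted chow and 66.1, 73.0 and 61.8 in deleted high-fat libraries. Floxed high-fat libraries stood far above the other 9, and the interaction for Gc was -1.22 (SE 0.0997, adjusted p = 1.11e-06). Summed over the list, alpha cell markers took 4% ± 0.340 of FPKM in floxed chow, 1.88% ± 0.213 in floxed high-fat, 3.37% ± 0.422 in deleted chow and 3.07% ± 0.418 in deleted high-fat libraries (mean ± SD, n = 3 each). The share of Ins2 rose over the same comparison in both genotypes, and its part in these shares was not tested. With quantile normalization the Gcg call was lost.

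**Figure D4:**
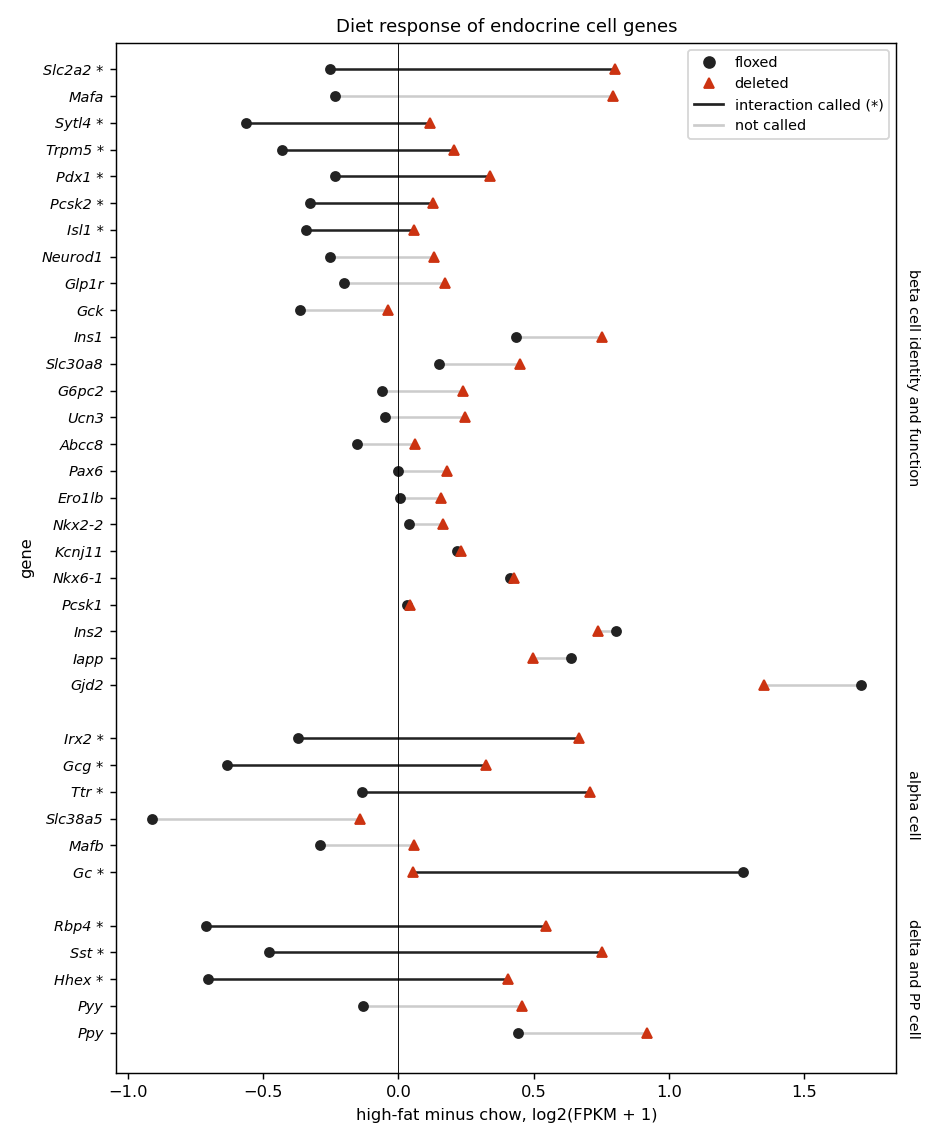
Diet response (high-fat diet minus chow, log2(FPKM + 1), x axis) of beta, alpha, delta and PP cell genes (rows), with floxed islets as circles and deleted islets as triangles, each the difference of group means. Dark lines and asterisks mark genes called for the interaction; the triangle lies to the right of the circle in each of them except Gc.

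Called stress genes were negative and called antioxidant genes positive. Of 32 tested genes of the unfolded protein and integrated stress responses, 3 (9.38%, against 3.53% of all tested genes) passed, all negative: Nupr1 and Derl3, given above, and Ddit3, the transcription factor CHOP. Ddit3 measured 511, 529 and 505 FPKM in floxed chow, 599, 534 and 508 in floxed high-fat, 648, 669 and 639 in deleted chow and 449, 472 and 462 in deleted high-fat libraries. In deleted islets it fell from above to below the floxed range (-0.50, adjusted p = 0.00139), the floxed response was 0.08 (adjusted p = 0.544) and the interaction was -0.58 (SE 0.133, adjusted p = 0.0177). Without replicate 1 of floxed high-fat the Ddit3 interaction was -0.52 (adjusted p = 0.0553).

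Of 19 tested antioxidant and NRF2 target genes, 3 (15.8%, against 3.53% of all tested genes) passed, all positive. On the high-fat diet 13 rose in floxed and 15 in deleted islets, where 15% and 9.05% of all tested genes rose. Gpx3, the secreted glutathione peroxidase, was reversed, with 473, 492 and 501 FPKM in floxed chow, 333, 359 and 342 in floxed high-fat, 468, 419 and 427 in deleted chow and 563, 525 and 483 in deleted high-fat libraries. The diets did not overlap in either genotype, and the interaction for Gpx3 was 0.76 (SE 0.111, adjusted p = 6.31e-04). Srxn1, which encodes sulfiredoxin, rose from 53.8 ± 4.78 to 73.1 ± 1.04 FPKM in floxed and from 54.9 ± 2.78 to 104 ± 13.3 FPKM in deleted islets (mean ± SD, n = 3 each). Its interaction was 0.46 (adjusted p = 0.0222 by limma), and that of Gclc, the catalytic subunit for glutathione synthesis, was 0.47 (adjusted p = 0.0285). The Srxn1 call ended without replicate 1 of deleted high-fat, 2 of deleted chow, 2 of floxed high-fat, or 1 or 2 of floxed chow (adjusted p from 0.0525 to 0.0683). The Gclc call ended without replicate 1 or 3 of deleted high-fat, 2 or 3 of deleted chow, 2 or 3 of floxed high-fat or 1 of floxed chow (adjusted p from 0.0558 to 0.0771).

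Other lists held few or no called interactions, and only some of them responded to the diet. Of 79 tested cytosolic ribosomal protein genes, 64 rose in floxed and 67 in deleted islets, where 15% and 9.05% of all tested genes rose. Among the 79, 1 passed for the interaction, the p53-induced paralogue Rps27l (1 at unadjusted p below 0.05). Of 73 oxidative phosphorylation genes, 50 rose in floxed and 42 in deleted islets, and 0 passed (3 at unadjusted p below 0.05). Of all tested genes 17.1% had an interaction at unadjusted p below 0.05. Interferon response genes had a median of -0.19 with 24 of 29 below zero, but 1, Cmpk2, passed. Cholesterol and fatty acid synthesis gave 1 of 28, Insig1. Among 22 genes of fatty acid oxidation and PPAR targets, Cd36 and Pdk4 passed. Cd36, the fatty acid translocase, measured 13, 13.4 and 15.2 FPKM in floxed chow, 6.08, 5.65 and 8.03 in floxed high-fat, 13.5, 13.3 and 12.6 in deleted chow and 12.2, 13 and 10.8 in deleted high-fat libraries. It was low in floxed high-fat libraries only, and the interaction for Cd36 was 0.86 (SE 0.155, adjusted p = 0.00405).

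The lists of MHC class I, core glycolysis, circadian clock, immediate early, cadherin and catenin, adiponectin and lipoprotein receptor, actin cytoskeleton, disallowed, duct, endothelial, lymphocyte and adipocyte genes had 0 tested members called by limma. At unadjusted p below 0.05 they had between 0 and 6 members each, with 6 of 13 for cadherins and catenins and 5 of 18 for the clock. Of all tested genes 17.1% passed at that threshold. For the remaining lists the called genes were P4ha2 with Higd1a (hypoxia, 2 of 17), Scg2 with Sytl4 (exocytosis, 2 of 21), Cxcl16 and Ccl4 (inflammation, 2 of 20), Psmd1 (proteasome, 1 of 33), Igf1r (growth hormone and prolactin pathway, 1 of 15) and Th (Schwann and neuronal, 1 of 5). The calls of Cmpk2, Psmd1, Ccl4, Pdk4, Cd14, Th, Cdkn1a and Scg2 were each lost in 6 to 11 of the 12 fits with 1 library left out. Those of Pdk4, Cd14, Th, Ccl4 and Cdkn1a were also lost without the filter on low values, and those of Pdk4, Cd14 and Th with the acinar covariate. With 3.53% of all tested genes called, 1 call in a list of about 30 genes is near the background.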

How the data were processed

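RNA of isolated islets was extracted with a miRNeasy kit and made into SMART-Seq HT cDNA and Nextera libraries, per the labels' protocols; strand is not marked. For each library the authors deposited FPKM by gene symbol. Build mm10, Cufflinks 2.2.1, SAMtools 0.1.19, TopHat2 2.0.13 and Bowtie2 2.2.3 are named per the submitters' processing notes, while the annotation is not given in the sources used here. FPKM as the unit was taken from Cufflinks and the values, since no label names it.

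A gene was tested when 3 or more of the 18 libraries reached 1 FPKM, which held for 12234 of 24346. Log2(FPKM + 1) was fitted with limma 3.58.1 (R 4.3.3, statmod 1.5.0; trended, robust moderation), with 6 group means. The 8-week chow libraries entered only the shared spread, which has 12 residual degrees of freedom. Tests were two-sided with Benjamini-Hochberg adjustment over all tested genes. The script was tested on simulated data. Figures used python 3.11.15, pandas 2.3.3, numpy 2.4.6 and matplotlib 3.10.9.

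Members, lists and classes were chosen with earlier results of these data known. Named were 10 islet genes, the 5 largest called interactions per class and direction with a group mean of at least 5 FPKM (clone-like names passed over), and the 3 smallest p-values of each list with at least 3 called members. Birc5, Cdk1, Cdkn2c, Hbb-b2, Cd36 and the other genes printed with values from outside this rule were chosen after their values were seen. A called member of the alpha cell list is counted but not reported by name here. Promoter windows came from RefSeq (GRCm38.p6) and gene positions from GENCODE annotation of the same build; GRCm38 is mm10. Alternatives were a pseudocount of 0.1, no filter, a minimum mean of 5 FPKM, sample quality weights, median-ratio scaling, quantile normalization, the 14-week libraries alone, the replicate number as a block, an acinar covariate, classes by sign, and each library left out.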

Additional observations from a re-analysis of the deposited data

Results flagged for a closer look

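The diet response differed between the genotypes, by the interaction test itself (limma, adjusted p below 0.05), for 432 genes, among them 44 of the named genes. Values here are interactions, the deleted response minus the floxed response, on the log2(FPKM + 1) scale. Blunted rises were Ube2c at -1.85, Necab2 at -1.74, Insl6 at -1.58, Derl3 at -1.52, Dapl1 at -1.51, Pbk at -1.37, Stmn1 at -1.34, Gc at -1.22 and Ccnb1 at -1.09. Blunted falls were Smim24 at 1.45, Cyr61 at 1.37, Gfra3 at 1.29, Higd1a at 1.20, Gpnmb at 1.16, Hhex at 1.11, Gcg at 0.96, Sytl4 at 0.68 and Pcsk2 at 0.45. Enhanced rises were Ugt2b35 at 1.34, Pcsk6 at 1.30, Cyp1a1 at 1.28, Hipk2 at 1.07, Usp7 at 1.04, Ttr at 0.84, Pdx1 at 0.57, Gclc at 0.47 and Srxn1 at 0.46. Enhanced falls were Hbb-b1 at -2.50, Serpina7 at -1.47, Kcnj8 at -1.12, Areg at -1.09, Igfbp3 at -1.08 and Ddit3 at -0.58. Reversed genes that rose in floxed islets were Otoa at -1.69, Tmem37 at -1.65, Nupr1 at -1.60, Rwdd2a at -1.41 and Xlr3b at -1.30. Reversed genes that fell in floxed islets were Nnat at 1.58, Rbp4 at 1.26, Sst at 1.23, Slc2a2 at 1.05, Ffar4 at 1.01 and Gpx3 at 0.76. Groups of 3 libraries were not tested for single outlying libraries.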

How the results depend on the processing

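The counts of called, blunted, enhanced and reversed genes were 432, 304, 77 and 47. Sample quality weights raised them to 778, 511, 176 and 81. Classes by sign alone gave 127 blunted, 24 enhanced and 281 reversed genes, and the acinar covariate left 3 reversed. The cause of the first change was not tested; the second follows from dropping the need for both responses to pass. Without any filter 318 genes were called and with a mean of at least 5 FPKM 366, and the pseudocount of 0.1, median-ratio scaling, quantile normalization and the 14-week libraries alone gave 415 to 476. With 1 library left out, 268 to 406 genes were called, 186 to 274 blunted, 41 to 89 enhanced and 28 to 40 reversed, and 203 of the 432 passed without each of the 12. Called genes fell by over 1.5 times without floxed chow replicate 1 (268) or 2 (278) or floxed high-fat replicate 3 (277). Blunted genes did so without these (186, 189 and 189) or deleted high-fat replicate 1 (195). Enhanced genes did so without deleted chow replicate 3 (41), deleted high-fat replicate 2 (49) or 3 (51) or floxed chow replicate 1 (51). Reversed genes did so without floxed chow replicate 1 (28), deleted high-fat replicate 2 (28), floxed high-fat replicate 2 (30) or deleted chow replicate 3 (31). A group left with 2 libraries was assumed to vary like the others. Of the 44 named called genes, 38 passed without each library; the exceptions were Cyr61, Hbb-b1, Areg, Srxn1, Gclc and Ddit3. The Cyr61 call also ended without the filter, and the Gcg call with quantile normalization. None of the 44 named called genes changed direction in any alternative that included it. Among the named genes that were not called, a call was gained in 3 pairs of gene and alternative, without a change of direction. Where such a gene stayed uncalled, its direction was not compared. With a replicate block 409 genes were called, 283 blunted, 79 enhanced and 44 reversed, and the calls of Pdk4, Cd14 and Scg2 were lost. Same-numbered libraries had correlated deviations of -0.16 to 0.23, above 0.1 in 8 of 45 pairs and not in every pair, so the numbers were not taken to pair the samples. A library correlated best with its own number in 48 of 90 comparisons, where 30 would be had with no relation, a hint of shared numbers from the data and not the design. Read depth is unknown, which limits genes near 1 FPKM most.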

Other observations

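The groups in this section were put together after the values were seen and are given as values. Tubulin genes, the subunits of microtubules, had positive interactions in 11 of 11 tested members, and 5 passed (Tuba1a, Tuba1b, Tuba4a, Tubb2a and Tubb4b, against 3.53% of all tested genes). Tuba1a measured 117, 141 and 155 FPKM in floxed chow, 64.5, 71.5 and 76.7 in floxed high-fat, 138, 124 and 114 in deleted chow and 100, 98.1 and 98.6 in deleted high-fat libraries. It fell in both genotypes and less in deleted islets, with an interaction of 0.61 (limma, adjusted p = 0.00773). Tubb2a fell in floxed islets (-0.78, adjusted p = 1.5e-06) and was at -0.14 in deleted islets (adjusted p = 0.271), with an interaction of 0.64 (adjusted p = 0.00396). Tuba4a and Tubb4b were reversed.

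Cdkn1a, Ccng1 and Rps27l, singled out from the known targets of p53 with no tally of the others, were blunted rises. Mdm2, another such target, was not called (-0.05, adjusted p = 0.857). Cdkn1a measured 40.7, 42.8 and 48.9 FPKM in floxed chow, 105, 104 and 106 in floxed high-fat, 40.9, 44.8 and 39.9 in deleted chow and 68.8, 64.9 and 67.4 in deleted high-fat libraries, without overlap between the diets in either genotype. The interaction for Cdkn1a was -0.57 (adjusted p = 0.0324) and its call ended in 10 of the 12 fits with 1 library left out. For Ccng1 the interaction was -0.73 (adjusted p = 0.00921) and for Rps27l -0.74 (adjusted p = 0.00405).

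Artn, which encodes artemin, the ligand of the receptor subunit Gfra3, moved against its receptor. Artn measured 0.530, 0.155 and 0.456 FPKM in floxed chow, 1.77, 1.98 and 1.47 in floxed high-fat, 0.694, 0.512 and 0.639 in deleted chow and 0.686, 0.415 and 0.440 in deleted high-fat libraries. Only floxed high-fat libraries exceeded 1 FPKM, and the interaction for Artn was -1.09 (SE 0.199, adjusted p = 0.00405) against 1.29 for Gfra3.

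Star, which carries cholesterol into mitochondria, was among the 5 called genes whose genotype difference also passed on chow. It measured 10.7, 10.3 and 8.62 FPKM in floxed chow, 32.1, 27.4 and 27.6 in floxed high-fat, 21.2, 23 and 25.1 in deleted chow and 36.8, 31.7 and 25.7 in deleted high-fat libraries. The genotypes did not overlap on chow (1.15, adjusted p = 1.43e-05) and overlapped on the high-fat diet (0.10, adjusted p = 0.636), and the interaction for Star was -1.05 (adjusted p = 8.17e-04).

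Klb, the co-receptor for FGF21, was reversed, with 2.82, 2.45 and 2.36 FPKM in floxed chow, 1.81, 1.16 and 1.70 in floxed high-fat, 2.10, 1.83 and 2.18 in deleted chow and 3.71, 3.99 and 4.35 in deleted high-fat libraries. Deleted high-fat libraries were the 3 highest and the interaction for Klb was 1.20 (adjusted p = 0.00162). Igf1r, the receptor for insulin-like growth factor 1, fell in floxed islets (-0.75, adjusted p = 9.12e-06) and was at -0.09 in deleted islets (adjusted p = 0.549), with an interaction of 0.66 (adjusted p = 0.00696).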
